A study of Mus musculus with 20 samples.

Results

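The nuclear factor I (NFI) family consists of 4 transcription factor genes in the mouse, Nfia, Nfib, Nfic and Nfix, and all 4 are described here across the cell types, ages and treatments of a single-cell RNA-seq series on the neonatal retina. The members were taken by gene symbol. They are 4 of the 23260 genes in the deposited count table, and each had unique molecular identifiers (UMIs, counts of captured RNA molecules) in all 20 libraries. Explanted retinas of CD1 wildtype mice were electroporated with a GFP construct (control), with MEIS1, with MEIS2 or with an equal mix of both (combination). GFP+ cells were sorted after papain dissociation and run on the 10x 3′ v3.1 platform. At postnatal day 2 (P2) and at postnatal day 5 (P5) there were 4 control libraries and 2 libraries of each of the 3 MEIS treatments. By the labels all groups share the wildtype strain and differ in age and construct, and each library holds only sorted cells that express GFP. Whether a library came from 1 or several animals is not given, so the p-values below measure the spread between libraries, which may be technical.

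The descriptions of the series disagree in places. Its design text names NR2F1 and NR2F2 constructs and 2 or 5 days of treatment, whereas the sample labels name MEIS constructs and the postnatal day. The treatment label of the samples gives MEIS1 for all single-construct libraries at P2 and MEIS2 for all of them at P5, whereas the treatment column of the authors' cell annotation follows the titles. Groups here follow the sample titles. The names at the start of the cell barcodes disagree with the titles in 10 of 20 libraries. They give a combination name to the P2 library titled control 1 and a control name to the P2 library titled combination 2.

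NFI proteins bind DNA as homodimers or heterodimers through a conserved N-terminal domain, at the palindrome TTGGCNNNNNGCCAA or at its half-site TTGGC, and can activate or repress transcription. In the nervous system Nfia and Nfib are known for the start of gliogenesis, Nfix for the control of neural stem cell proliferation and quiescence, and Nfic outside the nervous system for tooth root formation. In the retina, Nfia, Nfib and Nfix are known as genes of late progenitors that act in cell cycle exit and in the production of bipolar cells and Müller glia, the last cell types to be born. MEIS1 and MEIS2 are homeodomain proteins known for their role in early eye development, and their core DNA motif is TGACAG.

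In the GENCODE vM21 annotation of mm10, which need not be the annotation the authors counted with, Nfia lies at chr4:97772734-98118874 on the plus strand. Nfib lies on the same chromosome at chr4:82290173-82705750, Nfic at chr10:81396186-81455635 and Nfix at chr8:84699876-84800344, these 3 on the minus strand. Nfia overlaps E130114P18Rik on the opposite strand, and Nfix overlaps Lyl1 and G430095P16Rik on the opposite strand. Nfib overlaps Gm11267 on the same strand and n-R5s188, Gm11266, Gm11268 and Gm11269 on the opposite strand. Nfic overlaps Mir1191b on the same strand and Gm16104 on the opposite strand. Whether counting used strand is not stated, so reads of such partners may not be separable. In RefSeq's table for GRCm38.p6, 6 promoter windows (250 bases before to 50 after a start) matched Nfia, Nfic and Nfix. The MEIS core TGACAG, searched on both strands, was in 0 of the 6 windows and in 19.2% of all 32851 promoter windows. The NFI half-site TTGGC, also on both strands, was in 3 of the 6 windows and in 46.7% of all windows, and the full palindrome was in 0 of the 6 and in 0.0365% of all. All 3 windows with a half-site belong to Nfix. The count of 3 of 6 is near the share over all windows, so it is no trait of the members. How the 6 windows divide among the genes is not reported here, and Nfib had none. The stretches with a half-site are shown 5′ to 3′ on the gene's strand. Each half-site, or its reverse complement GCCAA, is in capitals. Relative to the start of transcription, the first capital base lies at position -175, 29 and -5 in the sequences as listed.
Nfix chr8:84775987-84776016, minus strand: tggatcttttgttTTGGCtcaccccaggcg
Nfix chr8:84773366-84773395, minus strand: tcagaatcaggcgTTGGCtttgccgggtgc
Nfix chr8:84772860-84772889, minus strand: ctgggggcaGCCAAacaTTGGCcagtccgg
A match in such a window is a description of the sequence. No binding was measured in these libraries.

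The 20 libraries hold 1625 to 17739 cells and 2376875 to 141540352 UMIs each, and 744 of 78261 distinct barcodes occur in more than 1 library. P2 MEIS2 replicate 2 stands apart, with a median of 992 UMIs per cell and 10.0% of its UMIs from Malat1, a nuclear RNA. The 4 P5 libraries numbered 1 had 7.18% to 10.0% mitochondrial UMIs, against 3.41% to 5.23% in the other P5 libraries. Calls lost without these libraries are given beside the result. The authors' cell types are used as deposited. They comprise 11818 progenitors and 9239 neurogenic cells (progenitors committed to making neurons), 38650 rods and 842 cones, 13556 amacrine cells with a further 98 of the starburst type, 4530 bipolar cells, 55 horizontal cells and 221 Müller glia. UMIs were summed per library and type, and levels are given as CPM, the UMIs of a gene scaled to the total UMIs of that sum, for sums of at least 20 cells. CPM from 3′ tags is not compared between genes. In such a sum, fewer cells with the RNA and less RNA per cell cannot be told apart.

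The overexpressed genes were checked in progenitors first. Meis1 was at 213.9 ± 93.2 CPM (SD, n = 4) in P2 controls and at 2099 and 2630 CPM in the P2 MEIS1 libraries. In the P5 MEIS1 libraries it was at 3137 and 3750 CPM, against 197 ± 9.87 CPM (SD, n = 4) in P5 controls. Meis2 was at 861 and 1830 CPM in the P2 MEIS2 libraries and at 848 and 971 CPM in the P5 MEIS2 libraries, against means of 133 CPM and 40.9 CPM in the controls of those ages. The combination libraries had means of 944 and 829.5 CPM of Meis1 and of 792 and 1243 CPM of Meis2 at P2 and P5. Each construct's gene was thus high in the libraries whose titles name it. Both P2 combination libraries had at least 887 CPM of Meis1 and 671 CPM of Meis2. No P2 control exceeded 354 CPM of Meis1 or 197 CPM of Meis2. The P2 libraries titled control 1 and combination 2 therefore had Meis levels that go with their titles and not with their barcode starts.

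Nfia in control libraries was a gene of progenitors and their neurogenic progeny. Progenitors had 594, 368, 253 and 398 CPM in P2 control replicates 1 to 4 and 428, 497, 475 and 516 CPM at P5. Neurogenic cells followed with means of 265 CPM at P2 and 383 CPM at P5, and amacrine cells with 177 ± 53.5 and 324 ± 128 CPM (SD, n = 4 each). Rods had only 21.2 to 38.4 CPM at P2 and 7.53 to 20.1 CPM at P5. Within the same library, progenitors exceeded rods by 3.84 ± 0.60 in log2(CPM + 1) at P2 and by 5.05 ± 0.73 at P5 (SD, n = 4), in 4 of 4 libraries at each age. Cones, at 23.6 and 21.3 CPM, did not differ from rods beyond the spread at either age, and at P5 neurogenic and amacrine cells did not differ beyond theirs. The types were defined by the authors from the expression of the same cells, so these and the following differences between types are descriptions without a test. The bipolar cells of P5 controls spanned 33.4 to 239 CPM, and the highest value belonged to P5 control 1, a library with many mitochondrial UMIs.

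Nfib differed from Nfia in being high in rods. At P2 rods had 785, 699, 555 and 554 CPM, above the progenitors of the same library in 4 of 4 cases, by 0.50 ± 0.25 in log2(CPM + 1). Progenitors had 687, 475, 322 and 403 CPM and neurogenic cells 617, 522, 282 and 327 CPM, which did not differ beyond the spread. Amacrine cells and cones had means of 232 and 170 CPM. At P5 the order was led by neurogenic cells at 873 ± 172 CPM, and their level did not differ beyond the spread from that of amacrine cells (618 ± 383 CPM). The next neighbours, amacrine cells and progenitors (557 ± 125 CPM), progenitors and rods (406 ± 313 CPM), and rods and bipolar cells (365 ± 42.3 CPM), did not differ beyond their spread either. Cones were lowest, at a mean of 111 CPM in 2 libraries. The rods of the 4 P5 controls were uneven, at 300.1, 151, 863 and 311 CPM, and replicate 3 alone exceeded the P2 values.

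Nfic was highest in photoreceptors at both ages. Rods had 139, 119, 83.8 and 113 CPM at P2 and 209, 212, 259 and 341 CPM at P5, and cones had means of 153 CPM (n = 4) and 228 CPM (n = 2). Cones and rods did not differ beyond the spread at either age. Progenitors were at 34.8 ± 14.0 and 68.9 ± 7.18 CPM (SD, n = 4), which is lower than the rods of the same library by a log2(CPM + 1) difference of -1.74 ± 0.42 at P2 and of -1.85 ± 0.23 at P5. In none of the 8 control libraries did progenitors exceed rods. Of the types with more than 1 library, amacrine cells were lowest at both ages, with means of 26.9 and 31.9 CPM. At P2 they did not differ beyond the spread from progenitors.

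Nfix shared with Nfia its high level in progenitors, and was near its lowest in photoreceptors. Progenitors had 234, 141, 79.8 and 155 CPM at P2 and 201, 231, 299.9 and 344 CPM at P5. Neurogenic cells were lower in 4 of 4 libraries at each age, with means of 71.6 and 171 CPM. Rods had means of 22.3 and 27.0 CPM and cones of 6.65 and 4.26 CPM, and progenitors exceeded rods by 2.71 ± 0.40 at P2 and 3.31 ± 0.34 at P5 in log2(CPM + 1). Amacrine cells changed place in this order between the ages, from 31.9 ± 18.4 CPM at P2, below neurogenic cells in every library, to 709 ± 663 CPM at P5. At P5 amacrine cells and progenitors did not differ beyond the spread.

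**Figure D1:**
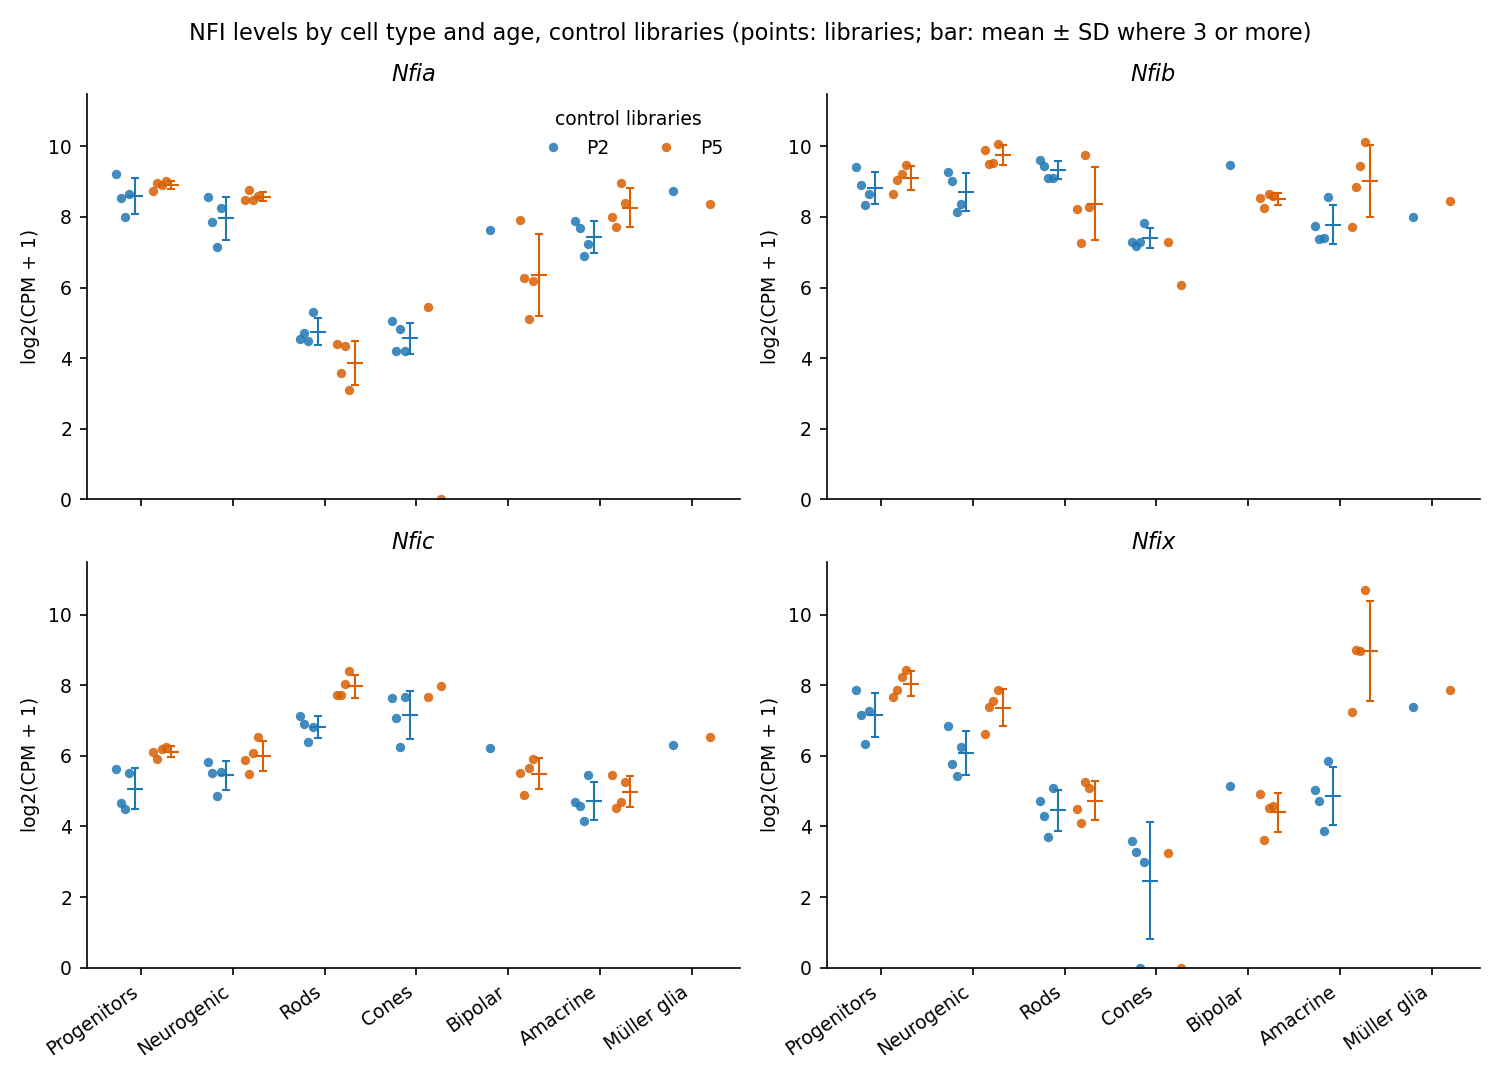
Levels of the 4 NFI genes in control libraries, as log2(CPM + 1) on the vertical axis, by cell type and age (blue P2, orange P5). Each point is 1 library, bars give the mean ± SD where 3 or more libraries have at least 20 cells; Nfia and Nfix are high in progenitors and low in photoreceptors, Nfic is highest in rods and cones, and Nfix in amacrine cells lies far higher at P5.

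The rarest types had single libraries with enough cells. Müller glia, the glial cells of the retina, had 40 cells in P2 control 1 and 46 cells in P5 control 3. Their Nfia was at 427 and 332 CPM, Nfib at 257 and 351 CPM, Nfic at 78.4 and 91.7 CPM and Nfix at 165 and 233 CPM. All 4 genes were thus detected in cells labelled Müller glia, with Nfia and Nfix far above the rod level. The label had limited marker support. The 6 Müller glia markers summed to 1468 CPM in the P2 library, below the median of 1942 CPM in P2 control progenitors (1100 to 3208). In the P5 library they summed to 10480 CPM, also below the median of 11455 CPM in P5 control progenitors (8940 to 16527). Astrocyte markers summed to 289 and 534 CPM, with Aldh1l1 at 0, against 1.02 to 1.78 CPM in progenitors at P2 and 6.59 to 28.0 CPM at P5, and the neurogenic list summed to 1362 CPM in the P5 library. Their part in the NFI levels was not tested. Starburst amacrine cells, a cholinergic amacrine type, had 29 and 26 cells in 1 library each, with Nfia at 6.56 and 13.7 CPM, Nfib at 29.5 and 140.1 CPM, Nfic at 13.1 and 61.5 CPM and Nfix at 0 and 3.42 CPM. No library had 20 horizontal cells.

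The first comparison set P5 control against P2 control libraries within each cell type, with edgeR's quasi-likelihood test and Benjamini-Hochberg adjustment over all genes tested. In progenitors Nfic and Nfix rose, whereas Nfia and Nfib did not pass the test. Nfic went from 48.8, 24.4, 21.4 and 44.8 CPM at P2 to 68.4, 59.0, 73.0 and 75.1 CPM at P5. The ages did not overlap for Nfic, which held for 18.0% of all genes tested. Its log2 fold change was 0.99 (adjusted p = 0.0241, edgeR). Nfix had a log2 fold change of 0.84 (adjusted p = 0.0227, edgeR), with P2 control 1 (234 CPM) inside the P5 range. In this comparison 17.5% of 14849 genes passed the test and 10.6% were higher at P5, so 2 of 4 members higher stands against a background of many changed genes. Nfib (0.26, adjusted p = 0.432, edgeR) and Nfia (0.27, adjusted p = 0.351, edgeR) missed the threshold. The Nfic call was lost without P2 control 2, P2 control 3, P5 control 1 or P5 control 4, at log2 fold changes of 0.84 to 0.97 (adjusted p 0.0530 to 0.0917, edgeR). The Nfix call was lost without P2 control 2, P2 control 3 or P5 control 4, at 0.65 to 0.79 (0.0699 to 0.0744). Both were also lost without the 4 P5 libraries numbered 1 (0.94 and 0.91, adjusted p = 0.110 and 0.0632) and without TMM scaling (0.97 and 0.82, adjusted p = 0.0513 and 0.0584, edgeR). The 6 markers of Müller glia, all with UMIs, moved with age in the same cells. They summed to 1100 to 3208 CPM in P2 control progenitors and to 8940 to 16527 CPM at P5, against 10480 CPM in the P5 cells labelled Müller glia. Their part in the result was not tested.

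In neurogenic cells Nfib and Nfix rose. Nfib went from 282 to 617 CPM in the P2 controls to 949.9, 728, 734 and 1079 CPM at P5, with no overlap between the ages, as for 13.2% of the genes tested. Its log2 fold change was 0.93 (adjusted p = 0.0200, edgeR). Nfix went from 114, 54.0, 42.4 and 75.5 CPM to 97.9, 168, 187 and 232 CPM, where only P5 control 1 lay inside the P2 range. The log2 fold change of Nfix was 1.18 (adjusted p = 0.00647, edgeR). Of 13745 genes 9.27% passed the test and 6.67% were higher at P5. Nfia (0.47, adjusted p = 0.263, edgeR) and Nfic (0.48, adjusted p = 0.251, edgeR) did not pass. The Nfib call was lost without P2 control 3 or 4, or without P5 control 1 or 4 (adjusted p 0.0526 to 0.0790, edgeR), and without the 4 P5 libraries numbered 1 (0.89, adjusted p = 0.0852). In the same cells the 6 progenitor markers summed to 228 to 393 CPM at P2 and to 915 to 1656 CPM at P5, where progenitors themselves had 1194 to 1679 CPM. The Müller glia markers went from 404 to 614 CPM at P2 to 2612 to 4419 CPM at P5. All 6 genes of each list had UMIs at both ages, and their part in the result was not tested.

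In rods Nfic rose at P5, by a log2 fold change of 1.09 (adjusted p = 0.00203, edgeR). Every P5 control (209 to 341 CPM) lay above every P2 control (83.8 to 139 CPM), as for 16.7% of the genes tested in either direction. In rods 13.2% of 14786 genes passed the test and 7.24% were higher at P5. Nfia had no overlap in the other direction, with 22.0, 25.0, 21.2 and 38.4 CPM at P2 and 20.1, 10.95, 19.1 and 7.53 CPM at P5, but it did not pass the test (log2 fold change -0.97, adjusted p = 0.185, edgeR). With P2 MEIS2 replicate 2 left out of the fit, which shares 1 estimate of spread over all groups, the adjusted p for Nfia in rods was 0.0404. Nfib (-0.75, adjusted p = 0.231, edgeR) and Nfix (0.18, adjusted p = 0.769, edgeR) did not pass. Without P5 control 3 the log2 fold change of Nfib was -1.43 (adjusted p = 0.00443, edgeR), so this library decided the Nfib result over all rods.

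In amacrine cells Nfix rose by a log2 fold change of 4.37 ± 0.76 (SE, adjusted p = 0.0144, edgeR). Its level went from 31.5, 25.3, 13.7 and 57.2 CPM in the P2 controls to 151, 511, 502 and 1670 CPM in the P5 controls, and the ages did not overlap, as for 3.52% of the genes. Only 52 of 13097 genes (0.397%) passed the test in this type, and 0.351% were higher. The P5 sums came from 866, 155, 155 and 88 cells, and the level was lowest in the largest of them. Nfib (1.31, adjusted p = 0.369, edgeR), Nfia (0.81, adjusted p = 0.413, edgeR) and Nfic (0.18) did not pass. The Nfix call was lost without P2 control 1, 2 or 3 (adjusted p 0.0548 to 0.0811, edgeR), although the log2 fold change stayed at 4.15 or more in those fits. It was also lost in a fit of the control groups alone (4.38, adjusted p = 0.0647, edgeR), and the fold was 3.52 without P5 control 4 (adjusted p = 0.0414). Markers of other types were uneven among these sums. The rod list summed to 1191 CPM in P5 control 1, against 275 to 485 CPM in the other P5 controls and 187 to 268 CPM at P2. The neurogenic list summed to 1412 CPM in P5 control 3, against 137 to 326 CPM in the other P5 controls and 248 to 706 CPM at P2. Their part in the result was not tested. In cones only Nfib and Nfic had enough counts to be tested, and neither was among the 0.0605% of genes that passed. Across whole types, 6 of 18 tests of a member passed, all of them upwards. Of all genes 17.5% passed in progenitors, 9.27% in neurogenic cells, 13.2% in rods, 0.397% in amacrine cells and 0.0605% in cones. Within rod clusters 1 and 2 Nfib was lower at P5, as given below.

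Rods and amacrine cells were then divided by the authors' clusters, a step added after the data had been seen. The clusters were made from the same cells' expression, so a difference between clusters at 1 age is a description. Tests were made between the ages, of the level within a cluster and of the difference between clusters of the same library. Rods fall mainly in clusters 0, 1 and 2.

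In cluster 0 the Nfib levels of both ages overlapped. This cluster had 1069, 873, 619 and 571 CPM at P2 and 640, 433, 1542 and 710 CPM at P5, with a log2 fold change of -0.05 (adjusted p = 0.963, edgeR). In cluster 1 Nfib fell. It was at 649.5, 638, 554 and 590.1 CPM in the P2 controls and at 62.7, 37.6, 269 and 36.8 CPM in the P5 controls, a log2 fold change of -2.65 ± 0.53 (SE, adjusted p = 0.00408, edgeR). Cluster 2 went from 148.0, 147.9, 200.5 and 250.3 CPM to 27.5, 17.6, 29.2 and 22.0 CPM, a log2 fold change of -2.93 ± 0.33 (SE, adjusted p = 0.000122, edgeR). The ages did not overlap in clusters 1 and 2, which held for 13.3% and 9.82% of the genes tested there (5.67% and 5.18% lower). The calls in both clusters held with each control library left out in turn, and without P5 control 3 the log2 fold change in cluster 1 was -3.80 (adjusted p = 2.32e-05, edgeR). The share of genes called lower at P5 was 5.29% in cluster 0, 3.49% in cluster 1 and 1.93% in cluster 2. Some rod markers differed between the ages inside the same clusters. Mean Sag, the rod arrestin gene, went from 181 to 1641 CPM in cluster 0, from 441 to 4464 CPM in cluster 1 and from 2551 to 7415 CPM in cluster 2. Nr2e3, a rod transcription factor gene, went from 199 to 971, from 510 to 1678 and from 1221 to 1822 CPM in the same clusters. Nrl, another rod marker, went from 215 to 472, from 385 to 579 and from 600 to 620 CPM. For Nr2e3 and Nrl the ranges of the ages overlapped in clusters 1 and 2. The part of these marker differences in the Nfib and Nfic results was not tested.

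The difference in Nfib between clusters was itself larger at P5. Cluster 1 less cluster 0 of the same library was -0.32 ± 0.33 in log2(CPM + 1) at P2 and -3.39 ± 0.70 at P5 (SD, n = 4 each). The change of -3.07 had a two-sided exact permutation p = 0.0286, the smallest that 4 libraries against 4 can give. Cluster 2 less cluster 0 went from -2.05 ± 0.78 to -4.92 ± 0.55, a change of -2.86 with the same exact p. These are 2 of 8 such differences over the 4 genes, and no correction over the 8 was made. Nfic in cluster 2 less cluster 0 (-0.29) and Nfix in cluster 1 less cluster 0 (-0.41) had the same exact p, so that p does not single out Nfib. The share of all genes with such a p was not computed. As to make-up, cluster 0 held 40.3% to 51.9% of the rods in P2 controls and 22.6% to 43.6% in P5 controls, ranges that overlap. Those of cluster 1 overlap too, at 30.4% to 40.7% and 24.1% to 35.4%. Cluster 2 held 8.68% to 25.3% at P2 and 32.4% to 42.6% at P5. P5 control 3, whose rods as a whole had the most Nfib, had the largest share in cluster 0 at P5. It also had the most Nfib of the P5 controls within each of the clusters 0, 1 and 2. The part of this make-up in the rod results was not tested.

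Nfic, in contrast, rose in all 3 rod clusters. Its mean went from 97.5 to 217 CPM in cluster 0, from 131 to 293 CPM in cluster 1 and from 153 to 280 CPM in cluster 2. The log2 fold changes were 1.00, 1.09 and 0.88 (adjusted p = 0.00521, 0.00461 and 0.00847, edgeR). The share of genes called higher was 5.58%, 5.33% and 1.74% in clusters 0, 1 and 2. Nfia and Nfix passed in none of the 3 clusters.

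**Figure D2:**
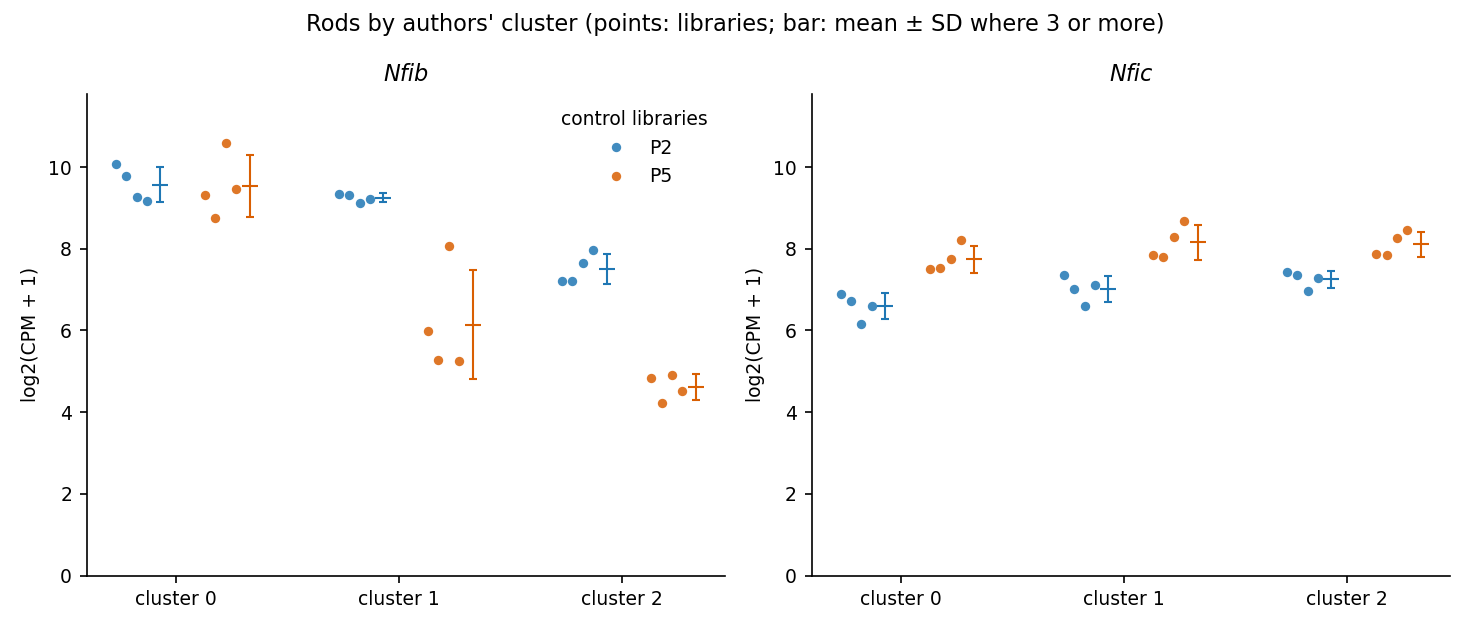
Nfib (left) and Nfic (right) in the rods of control libraries, as log2(CPM + 1) on the vertical axis, by the authors' cluster and age (blue P2, orange P5), with 1 point per library and the mean ± SD. Nfib at P5 overlaps its P2 range in cluster 0 and is far lower in clusters 1 and 2, and Nfic is higher at P5 in all 3.

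Amacrine clusters separated by Nfix as well. Cluster 6 had 34.5, 32.5, 13.3 and 62.2 CPM of Nfix in the P2 controls and 247, 1013, 909.7 and 2208 CPM in the P5 controls, and it rose by a log2 fold change of 4.88 ± 0.73 (SE, adjusted p = 0.00157, edgeR). In that cluster 2.23% of genes passed and 1.78% were higher. This call held with each control library left out in turn, with an adjusted p of at most 0.0141. Cluster 13 had 81.0, 72.0, 26.4 and 81.5 CPM at P2 and, in the 2 P5 controls with enough cells, 1032 and 247 CPM. Its log2 fold change was 3.19 (adjusted p = 0.0374, edgeR, against 0.0501% of genes called), and the call was lost without P2 control 2, 3 or 4 (0.0889 to 0.117). Without P5 control 1, which leaves 1 P5 library whose spread is taken from the other groups, the log2 fold change was 1.82 (adjusted p = 0.532, edgeR), and without all 4 P5 libraries numbered 1 it was also 1.82 (adjusted p = 0.361, edgeR). In clusters 7, 9 and 17, Nfix stayed between 0 and 16.3 CPM at both ages, and clusters 7 and 9, the 2 of them that could be tested, gave 0.31 (adjusted p = 0.893) and -0.30 (adjusted p = 0.922) with edgeR. Nfix was therefore high in some amacrine clusters at P5 and near 0 in others.

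Markers of transmitter type differed between these clusters, but not all in the same order. Slc6a9, the glycine transporter gene, was at means of 132 and 167 CPM in clusters 6 and 13 of the P5 controls, and at 41.4, 3.85 and 7.41 CPM in clusters 7, 9 and 17, although the 2 libraries of cluster 13 had 50.1 and 284 CPM. Gad1, which encodes a GABA-making enzyme, was at 2.40 and 3.03 CPM in clusters 6 and 13 and at 153, 337 and 293 CPM in clusters 7, 9 and 17. Gad2, the other GABA-making enzyme gene, was at 215 and 115 CPM in clusters 6 and 13 and at 137, 121 and 271 CPM in clusters 7, 9 and 17. Slc32a1, the vesicular transporter gene of both transmitters, was at 101 and 45.0 CPM against 99.7, 101 and 130 CPM. Gad2 and Slc32a1 therefore did not divide the clusters as Slc6a9 and Gad1 did. Some markers also differed between the ages within cluster 6. Means went from 331 CPM at P2 to 42.6 CPM at P5 for Tfap2a and from 446 to 77.9 CPM for Tfap2b, both amacrine transcription factor genes. Gad2 went from 604 to 215 CPM and Slc6a9 from 49.9 to 132 CPM. The ranges of the ages overlapped for the amacrine markers Pax6 (means of 1013 and 799 CPM), Slc32a1 (79.2 and 101 CPM) and Gad1 (2.47 and 2.40 CPM). The part of these marker differences in the Nfix result was not tested. Nfib in cluster 6 also rose (log2 fold change 1.70, adjusted p = 0.0404, edgeR), but this call was lost without P2 control 1, 2 or 3 or P5 control 2 or 4 (adjusted p 0.0743 to 0.138). In clusters 7 and 9 the Nfib log2 fold changes were -1.42 and -1.75 (adjusted p = 0.279 and 0.200, edgeR). Clusters 6 and 13 together held 31.6%, 48.4%, 91.0% and 80.7% of the amacrine cells in P5 controls 1 to 4, and 42.5% to 74.7% in the P2 controls. The ranges of the ages overlapped, and the part of this make-up in the overall Nfix change was not tested.

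**Figure D3:**
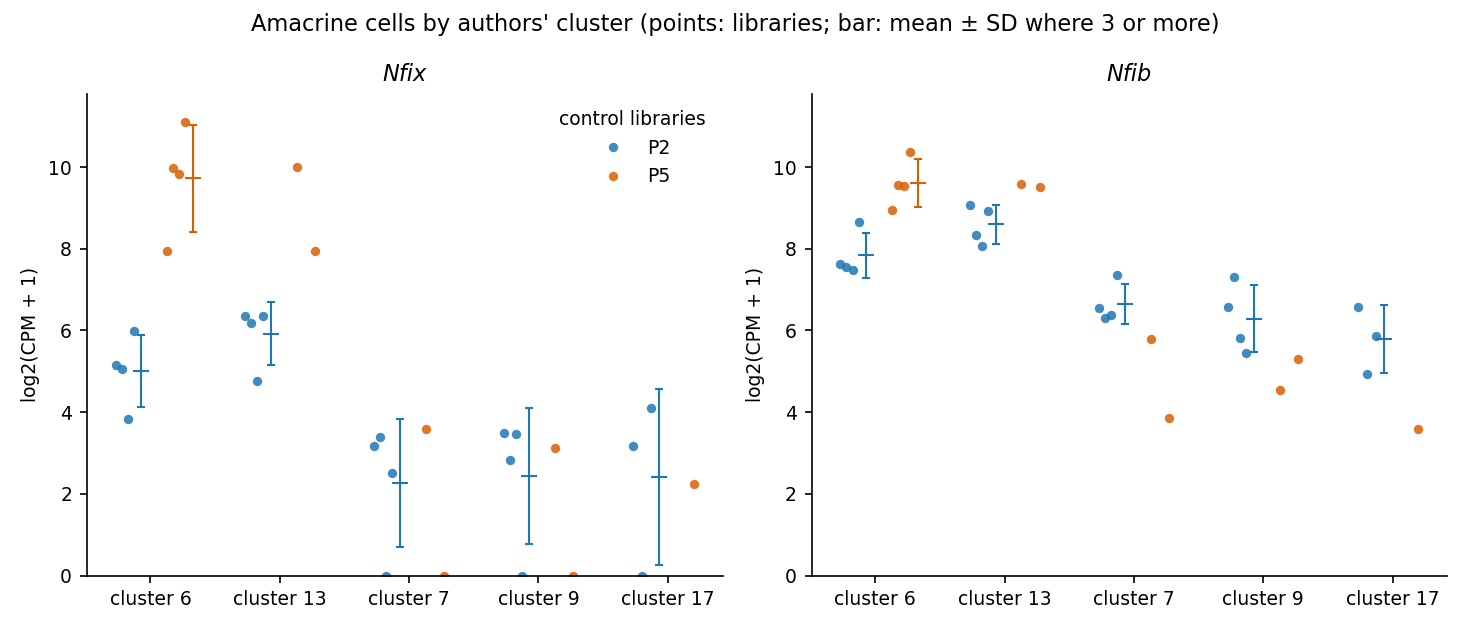
Nfix (left) and Nfib (right) in amacrine cells of control libraries, as log2(CPM + 1) on the vertical axis, by the authors' cluster and age (blue P2, orange P5), with 1 point per library that has at least 20 cells and the mean ± SD where 3 or more do. Nfix is high at P5 in clusters 6 and 13 and low at both ages in clusters 7, 9 and 17.

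Progenitors and neurogenic cells were described by cluster in the same way, without a test. Progenitor cluster 3 had a summed level of the cell cycle genes of 98.3 CPM in P2 controls, and clusters 12 and 16 had 3605 and 3237 CPM. Despite this, mean Nfia was 407, 410 and 371 CPM in clusters 3, 12 and 16, Nfib 486, 454 and 409 CPM, and Nfix 157, 146 and 133 CPM. The NFI levels of cycling and other progenitors were thus close at P2. Clusters 12 and 16 had at least 20 cells in all 4 P2 controls but in only 1 P5 control, and cluster 3 held 46.8% to 92.3% of progenitors at P2 and 74.1% to 97.1% at P5. Neurogenic clusters 4 and 11 differed, with Nfia at 213 and 433 CPM at P2 and at 271 and 539 CPM at P5. Nfix was likewise higher in cluster 11, at 100 CPM against 61.9 CPM at P2 and 250 CPM against 111 CPM at P5. Nfib did not follow this order at P5, with 925 CPM in cluster 4 and 754 CPM in cluster 11, nor did Nfic at either age, with 49.7 against 24.9 CPM at P2 and 71.6 against 53.7 CPM at P5. Cluster 11 held 21.6% to 27.4% of neurogenic cells in the P2 controls and 26.8%, 46.0%, 39.9% and 39.3% in P5 controls 1 to 4. The part of this make-up in the age results of both types was not tested.

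Other genes listed for late progenitors also differed between the ages. Of 20 tested genes of late progenitors and glia, 12 were higher at P5 and 0 lower in control progenitors, with a median log2 fold change of 1.01, against -0.04 over all genes tested, of which 10.6% were higher. Car2, carbonic anhydrase 2, went from 281 to 1694 CPM (log2 fold change 2.60). Rlbp1, a retinoid-binding protein gene of Müller glia, went from 266 to 1345 CPM (2.36), and Gpr37, a receptor gene, from 79.7 to 348 CPM (2.16, adjusted p = 1.44e-05, edgeR). Aqp4, a water channel gene of glia, went from 0.570 to 6.51 CPM (3.50). Among 16 tested genes of early progenitors, 2 were higher and 6 lower at P5, with a median of -0.45, where 6.96% of all genes were lower. The RNA-binding protein genes Igf2bp1 and Igf2bp2 fell by 1.90 and 1.11 on the log2 scale, and Fgf15, a growth factor gene of progenitors, fell by 2.61. Of 15 cell cycle exit genes 2 were higher and 5 lower (median -0.17), of 13 bipolar genes 3 were higher and 3 lower (median -0.75, among them Bhlhe22, which fell by 1.84), and of 16 cell cycle genes 0 were higher and 1 lower (median -1.55). In neurogenic cells, where 6.67% of all genes were higher, 14 of 19 tested late progenitor and glia genes (median 2.04) and 6 of 15 bipolar genes (median 1.74) were higher at P5, and 0 of either list were lower. Of 16 early progenitor genes there, 3 were higher and 3 lower (median -0.31). Of 15 cell cycle exit genes 1 was higher and 1 lower (-0.06), and of 10 cell cycle genes 0 were higher and 1 lower (-0.28). The list of late progenitors and glia contains all 6 Müller glia markers, whose sums in both types are given above, so the 2 observations are not separate. These lists do not contain the NFI genes and were chosen with earlier results of these data known.

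The second question was whether MEIS1 or MEIS2 changes the NFI genes. In progenitors no NFI gene passed the test for any MEIS construct against control, at either age. At P2, Nfia was at 569 and 387 CPM with MEIS1, 574 and 838 CPM with MEIS2 and 599 and 490 CPM with the combination, against 253 to 594 CPM in controls. Its log2 fold change for the mean of the 3 constructs was 0.32 (adjusted p = 0.618, edgeR), and an interval of 2 SE around it spanned -0.04 to 0.68. The other members at P2 were at 0.17 for Nfib (-0.23 to 0.56), 0.39 for Nfic (-0.13 to 0.92) and 0.37 for Nfix (-0.06 to 0.81). Without P2 MEIS2 replicate 2 the P2 values were 0.25 for Nfia, 0.21 for Nfib, 0.08 for Nfic and 0.43 for Nfix (adjusted p 0.542 to 0.941, edgeR). At P5 the log2 fold changes lay nearer 0, at -0.02 for Nfia (-0.38 to 0.34), -0.15 for Nfib (-0.54 to 0.24), 0.11 for Nfic (-0.40 to 0.63) and 0.01 for Nfix (-0.43 to 0.44). At neither age did the MEIS libraries all lie outside the control range for any member, which held for 0.882% of genes at P2 and for 0.357% at P5 (0.189% higher). The P2 values are relative to the TMM scaling. Without it the median of all genes tested in P2 progenitors moved to 0.17, so plain CPM at P2 sits that much higher in the MEIS libraries. Over all genes 2 (0.0135%) passed at P2 and 3 (0.0202%) at P5 with edgeR, 1357 and 284 had an unadjusted p under 0.05, and DESeq2 called 6 at each age.

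The age difference of the MEIS effect in progenitors also passed for none of the 4 members. The P5 effect less the P2 effect was -0.34 for Nfia, -0.32 for Nfib, -0.28 for Nfic and -0.37 for Nfix, each with an interval of 2 SE that included 0. Of all 14849 genes 0 (0.0%) passed with edgeR, 331 had an unadjusted p under 0.05, and DESeq2 called 2.

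Each construct taken alone passed the edgeR test in 0 of 24 comparisons of a member in progenitors, of which 2 had an unadjusted p under 0.05, and DESeq2 called 1. The share of all genes that passed was 0.00673% for MEIS1 at each age and for MEIS2 at P5, and 0.0135% for the combination at each age. The nearest member was Nfic with MEIS2 at P2. The 2 libraries had 54.0 and 179.9 CPM, against 21.4 to 48.8 CPM in the controls, a log2 fold change of 1.38 ± 0.35 (SE, adjusted p = 0.148, edgeR, against 0.0404% of genes called). The high value belongs to replicate 2, the library with few UMIs and much Malat1. With that library as the only MEIS2 sample, whose spread is then taken from the other groups, the log2 fold change was 1.99 (adjusted p = 0.000604, edgeR). Without it, with replicate 1 alone, the log2 fold change was 0.43 (adjusted p = 0.844, edgeR). DESeq2 on both libraries gave 1.46 (adjusted p = 0.0121), in a comparison where it called 7.04% of 7651 genes. In the rods of the same library Nfia was at 160 CPM, against 15.5 to 38.4 CPM in all other P2 libraries, and Nfic was at 287 CPM. At P5 the 2 MEIS2 libraries had 109 and 65.7 CPM of Nfic in progenitors against 59.0 to 75.1 CPM in controls (log2 fold change 0.22).

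**Figure D4:**
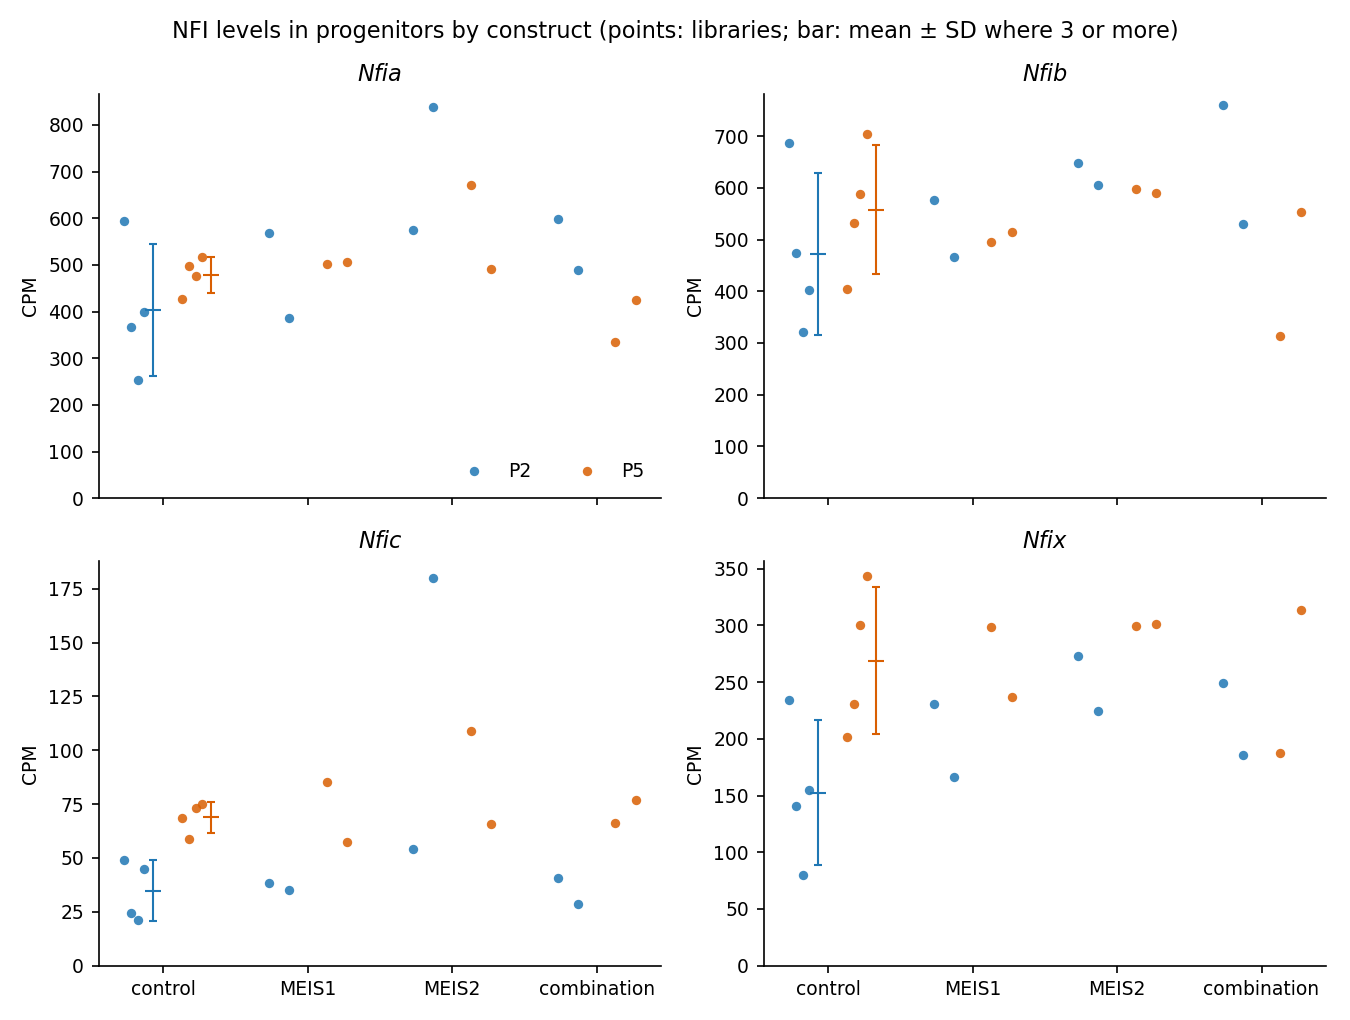
CPM of the 4 NFI genes in progenitors by construct and age (blue P2, orange P5), with 1 point per library and the mean ± SD for the controls. For no gene do all MEIS libraries of an age lie outside the control range, and the highest P2 values of Nfia (838 CPM) and Nfic (179.9 CPM) are those of MEIS2 replicate 2.

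Outside progenitors the edgeR test for any MEIS construct passed for no member either, which makes 0 of 16 tests at P2 and 0 of 20 at P5 over all types. At each age 1 of these tests had an unadjusted p under 0.05, and DESeq2 called 0. Of 84 tests of a single construct outside progenitors edgeR called 0 and 8 had an unadjusted p under 0.05. Over all genes of these 21 comparisons 0.00272% were called and 4.43% had an unadjusted p under 0.05, with 111 to 2067 such genes in a comparison. DESeq2 called 3 members. They were Nfib in P5 bipolar cells with the combination, and Nfic with MEIS2 at P2 in rods (0.93, adjusted p = 0.0151, DESeq2) and in neurogenic cells (1.07, adjusted p = 0.0284, DESeq2). Of the genes to which DESeq2 gave an adjusted p, it called 4.97% of 9336 and 8.66% of 5218 in these last 2 comparisons. In the first it called 2.17% of 11601. With edgeR and without the P2 MEIS2 replicate rich in Malat1, the Nfic values were 0.64 in rods (adjusted p = 0.813) and 0.50 in neurogenic cells (0.845). In P5 neurogenic and bipolar cells 0.00728% and 0.00678% of all genes passed. Nfib in P2 rods had the clearest separation. The 6 MEIS libraries had 1108, 1081, 1568, 934, 1433 and 1013 CPM, and the 4 controls 785, 699, 555 and 554 CPM. All MEIS libraries exceeded all controls, as for 1.26% of the genes in either direction. The log2 fold change was 0.77 ± 0.36 (SE, adjusted p = 0.456, edgeR), and the two-sided exact permutation test on CPM gave p = 0.00476, the smallest possible with 6 against 4. Over the 52 permutation tests of members the adjusted value was 0.248, and a single test at the smallest possible p could not have passed that correction. Without P2 MEIS2 replicate 2 the log2 fold change was 0.86 (adjusted p = 0.466, edgeR). No gene passed in P2 rods with edgeR (0.0%), where 1618 had an unadjusted p under 0.05 and DESeq2 called 140. By cluster the P2 log2 fold changes of Nfib were 0.69, 0.52 and 0.26 in clusters 0, 1 and 2, and none passed. At P5 the log2 fold change of Nfib in rods was 0.20 (-0.51 to 0.92).

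Nfib was also high in cells labelled bipolar in the P5 combination libraries, a comparison added after the data had been seen. These had 2158 CPM (53 cells) and 1092 CPM (246 cells), against 370, 304, 399.5 and 385 CPM in the P5 controls. MEIS1 libraries had 326 and 270.0 CPM and MEIS2 libraries 604 and 524 CPM, so the MEIS2 and combination libraries lay above all controls, as for 1.63% of the genes tested. Both combination libraries alone lay above all controls for 10.2% of genes. The log2 fold change for the combination was 2.13 ± 0.26 (SE, adjusted p = 0.0589, edgeR), just outside the threshold. By edgeR 0 of 14747 genes passed (0.0%) and 1686 had an unadjusted p under 0.05, while DESeq2 called 252, among them Nfib (adjusted p = 1.85e-10). EdgeR also called it without a filter on low counts (adjusted p = 0.000726), without TMM (0.0470) and without P5 control 3 (0.0281). With combination replicate 1 as the only combination sample, whose spread is then taken from the other groups, the log2 fold change was 2.56 (adjusted p = 0.000267, edgeR). Without it, with replicate 2 alone, the log2 fold change was 1.54 (adjusted p = 0.142, edgeR). Without all 4 P5 libraries numbered 1, of which it is one, the value was 1.56 (adjusted p = 0.975, edgeR), and in a fit of the compared groups alone 2.18 (0.389).

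The markers of these cells bear on the label. In combination replicate 1, 4 of 7 bipolar markers were at 0 (Vsx1, Grm6, Trpm1 and Bhlhe23). Controls had 407 to 728 CPM of Grm6, the glutamate receptor of ON bipolar cells. The neurogenic marker list summed to 1064 CPM in that library, against 108 to 506 CPM in the controls. Combination replicate 2 had 227 CPM of Grm6 and UMIs of all 7 bipolar markers, with a neurogenic sum of 327 CPM. It was nevertheless below every P5 control for Trpm1 (23.7 CPM against 58.3 to 326), Vsx1 (36.9 against 125 to 231) and Pcp2 (35.1 against 49.6 to 575), and above them for Otx2 (1458 against 699 to 1246). Cabp5 (101.5 against 86.7 to 322) and Bhlhe23 (64.3 against 55.6 to 135) lay inside the control range. The bipolar sum did too (1947 against 1929 to 2959). The Müller glia list summed to 789 CPM in replicate 1 and 178 CPM in replicate 2, against 114 to 414 CPM in the controls. The part of this difference in the Nfib result was not tested. At P2, 44 cells of control 1 were labelled bipolar, and 3 of 7 bipolar markers had UMIs there. Vsx1, Grm6, Trpm1 and Bhlhe23 were at 0. Otx2 was at 1334 CPM, above every P5 control, and Cabp5 and Pcp2 were at 14.7 and 4.89 CPM. Marker support for the label was thus partial. Since only 1 P2 control library had enough of these cells, no age comparison was made.

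**Figure D5:**
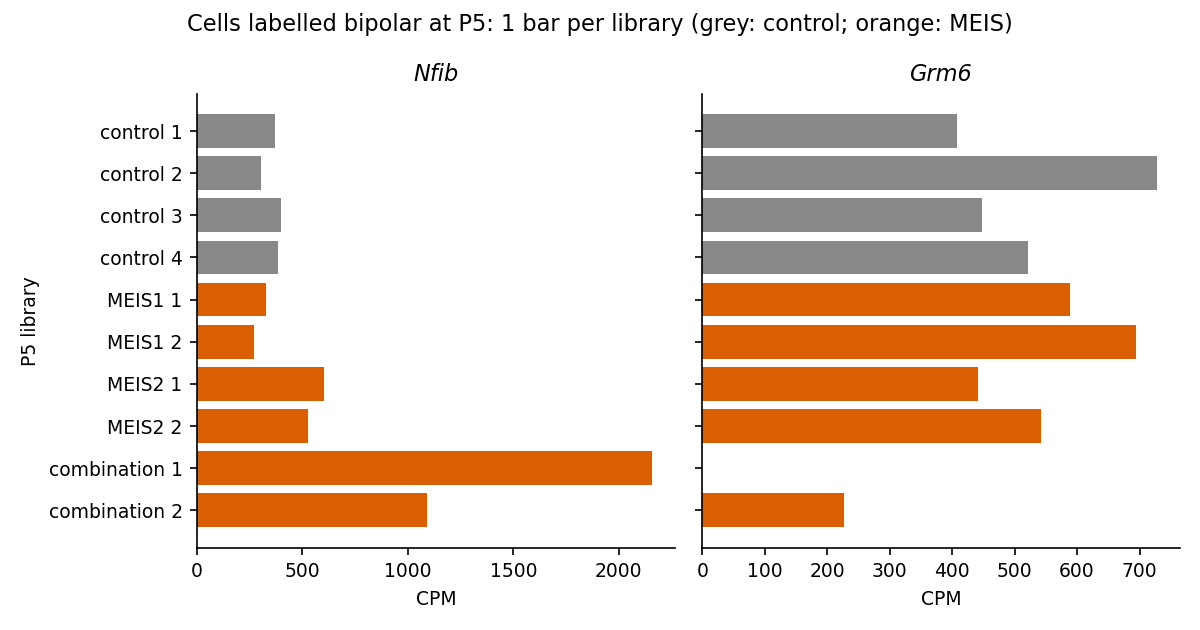
CPM (horizontal axes, from 0) of Nfib and the bipolar gene Grm6 in cells labelled bipolar, with 1 bar per P5 library (grey control, orange MEIS). The combination libraries have the highest Nfib, 2158 and 1092 CPM, and combination 1 has Grm6 at 0.

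The share of cells with at least 1 UMI of a gene was taken after each control cell had been thinned to 2000 UMIs, because the number of UMIs per cell differed between libraries. In P2 progenitors 51.2% of cells had Nfia, 56.8% Nfib, 6.44% Nfic and 25.6% Nfix (means of 4 libraries). At P5 these shares were 55.9%, 61.3%, 13.9% and 40.7%. Without thinning the P2 and P5 shares were 81.2% and 97.9% for Nfia and 85.8% and 98.4% for Nfib. For Nfic they were 22.1% and 66.6%, and for Nfix 58.1% and 96.1%. Median depth per progenitor ranged from 5503 to 12424 UMIs over the P2 controls and from 10926 to 24147 UMIs over the P5 controls, and thinning left out 2.82% and 0.354% of progenitors. After thinning, cells with none of the 4 genes made up 17.8% of P2 and 9.61% of P5 progenitors. Such cells may have had UMIs of these genes before thinning, so the shares are not of cells without NFI RNA. At the same depth Nfia, Nfib and Nfix were found together in 9.53% and 13.6% of cells, close to the product of their single shares, 8.33% and 14.2%.

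In rods the share with Nfib was lower at P5 and that with Nfic higher. The share of rods with Nfib was 50.3% at P2 and 19.7% at P5, and with Nfic 18.8% and 37.8%. Unthinned shares were 54.0% and 25.6% for Nfib and 29.7% and 59.3% for Nfic, and thinning left out 20.8% and 20.1% of rods. Nfia in rods (4.44% and 2.35%) and Nfix in rods (3.91% and 4.70%) serve as the level in a type where these genes were near their lowest, and the progenitor shares of both lay far above it. In amacrine cells the share with Nfix was 4.45% at P2, which is near the rod share, and 38.1% ± 24.3 (SD, n = 4) at P5, with a range over libraries of 9.27% to 67.4%. Of P5 bipolar cells 69.1% had none of the 4 genes at this depth.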

How the data were processed

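Papain-dissociated, GFP+ sorted retinal cells were processed by the authors with Cell Ranger on an mm10 genome with an added GFP locus and with Seurat 5, per the submitters' processing notes and the labels. The Cell Ranger version is not given in the sources used here. The values deposited are raw counts of UMIs for every gene in every cell, with 501 to 46192 UMIs per cell. The authors' annotation supplied each cell's library, cell type and cluster, and its percent of mitochondrial UMIs was deposited by the authors as a percent. Columns were joined to libraries through this annotation, and 0 columns of other samples were left out.

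Counts were summed per library and cell type (minimum 20 cells). EdgeR 4.0.16 (R 4.3.3, limma 3.58.1) fitted 1 mean for each of the 8 groups with TMM scaling, filterByExpr and the quasi-likelihood test, two-sided, adjusted over all genes at 0.05. DESeq2 1.42.0 was an alternative, and DESeq2 adjusted p-values given as missing stayed missing. CPM carries no TMM factor, and log2 values of CPM use a pseudocount of 1. Single values were also tested by exact permutation over libraries. Genes named were the 4 members, Meis1 and Meis2, the 3 genes most correlated with each member, and the called list genes of control progenitors with the lowest adjusted p, at most 4 in each direction. Slc6a9, Gad1, Gad2, Slc32a1, Tfap2a, Tfap2b, Pax6, Sag, Nr2e3, Nrl, Grm6, Trpm1, Vsx1, Bhlhe23, Cabp5, Pcp2, Otx2 and Aldh1l1 are markers, named after their values were seen. Some marker genes are not reported here. The members, lists and comparisons were chosen with earlier results of these data known. Intervals of 2 SE are given for log2 fold changes.

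Doublets were scored with Scrublet in scanpy 1.11.5 (expected rate 6%). It marked 11.3% of cells in P2 control 1, but 0 of 4712 in P2 control 2 and 1 of 6292 in P5 control 1, and under 0.5% of cells in 7 of 20 libraries, so it failed in some libraries, and the results keep all cells. Promoter sequences are RefSeq's for GRCm38.p6. Precision is limited by 2 to 4 libraries per group and, in rare types, by cell number.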

Additional observations from a re-analysis of the deposited data

Results flagged for a closer look

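Among 40 groups of 4 to 10 libraries, 1 contained a library set apart from the rest by the gap to its nearest neighbour relative to the range of the group. This was Nfib in the cones of P2 control replicate 4, at 224.92 CPM. Chance gives about 1 in 20 such groups. Of 8 differences between rod clusters that were compared between the ages, 4 differed by the exact permutation test over 4 against 4 control libraries (two-sided p = 0.0286 each, the smallest possible). These were Nfib in cluster 1 less cluster 0 (P5 less P2 -3.07 in log2(CPM + 1)), Nfib in cluster 2 less cluster 0 (-2.86), Nfic in cluster 2 less cluster 0 (-0.29) and Nfix in cluster 1 less cluster 0 (-0.41). The last pair is small beside the Nfib differences. Such a p means only that the ages do not overlap, and the share of all genes with it was not computed. For the level within a cluster, 14.4%, 13.3% and 9.82% of genes did not overlap in clusters 0, 1 and 2.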

How the results depend on the processing

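Of the NFI tests between control ages, 6 passed. The count was 4 without TMM, 5 in a fit of the compared groups alone, 7 without the library with much Malat1, and 6 with DESeq2, with no low-count filter or with groups taken from the barcode starts. It was 3 without the 4 P5 libraries numbered 1, an alternative chosen after seeing the data, and 2 to 7 with single replicates left out (3 without P2 control 2, 2 without P2 control 3, 3 without P5 control 4). The cause was not tested. The calls over all genes between control ages moved too. In progenitors they were 2602 of 14849 in the main fit, 2182 without TMM and 3148 of 14841 with DESeq2. In the same order they were 1274, 1248 and 1430 in neurogenic cells and 1949, 1851 and 2568 in rods. In amacrine cells they were 52, 56 and 192, and in cones 4, 5 and 6. Those of the other settings are not reported here. The MEIS count at P2 was 0 in all alternatives. At P5 it was 0, or 1 without combination replicate 2 (Nfib in bipolar cells, 0.97, adjusted p = 0.0262, edgeR). Single constructs in progenitors gave 0 calls, but 1 (Nfic with MEIS2 at P2) with DESeq2, 1 with groups from the barcode starts (1.56, adjusted p = 0.0490, edgeR), and 0 to 1 with single replicates left out. The age difference of the MEIS effect gave 0 calls throughout. The labels do not say that a replicate number marks a shared source. Deviations of samples with the same number correlated by -0.24 to 0.51 among P2 groups and by 0.03 to 0.47 among P5 groups, over 0.1 in 3 and 4 of 6 pairs of groups. At P2 the pairs with MEIS2, whose replicate 2 is rich in Malat1, had -0.23, -0.24 and -0.08, and the others 0.40 to 0.51. At P5 the combination had 0.03 with MEIS1 and 0.05 with MEIS2. Since not every pair passed, the numbers were not used as pairs. A fit with a replicate block gave 6 calls between ages, and it called 2 members with the combination in P5 bipolar cells, Nfib (2.17, adjusted p = 0.0179, edgeR) and Nfic (1.04, adjusted p = 0.0369). Of 140 alternative values for 48 differences between types, 4 moved beyond the replicate spread. Without Scrublet doublets amacrine cells less rods at P2 gave -2.60 for Nfic. With a pseudocount of 10, neurogenic cells less rods gave -1.21 for Nfic at P2, and progenitors less rods gave 2.29 at P2 and 2.93 at P5 for Nfix. Of 2890 alternative values for single genes in whole types, 20 lost a call, 19 gained one, and 0 changed direction while called. Of 180 within clusters, 10 lost a call and 0 gained one or changed direction while called. Small sums, such as 24 cones or 53 bipolar cells, limit what can be shown.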

Other observations

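The genes whose levels varied most like each member were sought over 105 sums of a library and a cell type, among 7391 genes with a mean of at least 20 CPM. Sums of 1 library share its depth and free RNA, and sums of 1 type share that type, so the correlations are descriptions. Nfia was most like E130114P18Rik (Pearson's r = 0.93), the gene that overlaps it on the opposite strand, followed by Magi1 (0.89) and Pxdn (0.88). Nfix was also most like E130114P18Rik (0.80), then Sema5a and Ezr (0.78 each), although it lies on another chromosome. Nfic was most like B4galt1 (0.88), Nr3c1, the glucocorticoid receptor gene (0.87), and Sec22a (0.86). Nfib had no gene as close, with Pde5a at 0.70 and Btbd17 and Scamp2 at 0.69. Between members, r was 0.78 for Nfia and Nfix, 0.56 for Nfib and Nfix, 0.34 for Nfia and Nfib, 0.11 for Nfib and Nfic, -0.24 for Nfic and Nfix and -0.51 for Nfia and Nfic.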
